A study of Mus musculus with 12 samples.

Results

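The 5 genes described here, Ccl3, Ccl4, Ccl5, Xcl1 and Ccl1, encode chemokines that activated T cells can secrete. Every probe set that the platform annotation assigned to one of these symbols alone was taken, which gave 5 of the 18193 genes with such a probe set, each by 1 probe set: 1419561_at for Ccl3, 1421578_at for Ccl4, 1418126_at for Ccl5, 1419412_at for Xcl1 and 1421688_a_at for Ccl1. Tests ran over all 45037 probe sets that were not array controls. No probe set with several symbols held one of them. The rule itself takes gene names, but the 5 genes were picked with earlier results of these data known, so their counts below are no independent evidence.

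Chemokines are small secreted proteins that bind G-protein-coupled receptors and direct the movement of leukocytes. Ccl3, Ccl4 and Ccl5 are CC chemokines that draw monocytes, NK cells and activated T cells. Xcl1, the only C chemokine described here, binds Xcr1 on cross-presenting dendritic cells, and Ccl1 binds Ccr8 on activated and regulatory T cells. In T cells, Ccl3, Ccl4, Ccl5 and Xcl1 are known as products of effector and memory cells, above all of cytotoxic and Th1 cells.

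Spleen RNA of CD4 T cells was measured on 12 Affymetrix mouse genome arrays, and every donor was a female MRL/Faslpr mouse, a lupus-prone strain with a mutant Fas gene. All cells were gated as TCRb+ CD4+ B220-. The naive CD62Lhi CD44lo population came from mice aged 6 to 8 weeks, whereas donors of the 3 CD44+ populations were 16 to 24 weeks old. These were CD62Lhi PSGL1hi, CD62Llo PSGL1hi and CD62Llo PSGL1lo cells, where CD62L is the lymph node homing selectin and PSGL1 a selectin ligand. Each population had 3 arrays. Every mouse carried the Faslpr genotype, and no mice with intact Fas were included. Wherever naive cells are compared, population and age cannot be told apart. The 3 arrays of a population are technical replicates by their titles and 3 sorts by the design text, so a p-value reflects only how far those arrays spread. For CD62Llo PSGL1hi, one label field gives a different gate, and the group was taken from its titles.

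The values are ratios of the signal of a probe set to its own median over the 12 arrays. They compare arrays for 1 gene and give no order of level between genes. Array medians of the ratio were 0.967 to 1.022, and the SD within a population had a median over probe sets of 0.10 to 0.15 on the log2 scale. A ratio cannot show whether a marker is present, so the CD4 label could only be checked for differences. Of 9 measured T cell identity genes, 6 were higher in CD62Llo PSGL1hi than in naive cells, 3 were higher in CD62Llo PSGL1lo than in naive cells, and none was lower in any comparison. Cd4 was 1.51-fold higher in CD62Llo PSGL1hi cells than in CD62Lhi PSGL1hi cells and differed by -0.01 on the log2 scale between both CD62Llo populations.

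The promoter sequences of the members that RefSeq (GRCm38.p6) gave here are shown first, because the 5 genes fell into different patterns below and these windows let their upstream letters be compared. Each window holds the 250 bases before the gene's start, 5′ to 3′ on the gene's strand. Ccl3 lies at chr11:83649379-83649628, Xcl1 at chr1:164935523-164935772 and Ccl1 at chr11:82179813-82180062, all on the minus strand. Capitals mark matches to 5 motifs on either strand. These were the TATA box (TATAAA), AP-1 (TGANTCA), the NFAT core (GGAAAA), the T-box (GGTGTGA) and RUNX (TGTGGT), which do not overlap one another here. Ccl4 and Ccl5 were not in the table used.
Ccl3: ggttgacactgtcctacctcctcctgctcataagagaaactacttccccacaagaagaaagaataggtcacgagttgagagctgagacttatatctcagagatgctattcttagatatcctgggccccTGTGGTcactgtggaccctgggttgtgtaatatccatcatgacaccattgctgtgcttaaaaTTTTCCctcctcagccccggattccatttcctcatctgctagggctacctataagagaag
Xcl1: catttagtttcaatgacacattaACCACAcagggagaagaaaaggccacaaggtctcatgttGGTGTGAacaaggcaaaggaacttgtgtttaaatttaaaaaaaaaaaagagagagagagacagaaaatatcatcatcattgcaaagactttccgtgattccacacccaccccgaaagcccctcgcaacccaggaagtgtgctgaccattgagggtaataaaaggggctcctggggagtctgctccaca
Ccl1: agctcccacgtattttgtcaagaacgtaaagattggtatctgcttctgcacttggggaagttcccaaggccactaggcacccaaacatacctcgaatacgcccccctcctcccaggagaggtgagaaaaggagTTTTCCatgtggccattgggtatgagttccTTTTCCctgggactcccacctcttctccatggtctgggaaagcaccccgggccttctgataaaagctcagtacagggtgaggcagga
The NFAT core occurred in the Ccl3 window from -60 to -55 and at 2 places in the Ccl1 window, from -117 to -112 and from -87 to -82, each on the opposite strand. A RUNX match stood at -122 to -117 in Ccl3 and, on the opposite strand, at -227 to -222 in Xcl1. The T-box letters were found only in the Xcl1 window, from -188 to -182. Of 32817 promoter windows of this length, 20.4% held the NFAT core, 14.0% the RUNX letters, 3.33% the T-box, 12.4% the TATA box and 6.75% the AP-1 letters. A match is a description of letters and not of binding, which was not measured.

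Across the 4 populations all 5 chemokine transcripts differed by limma's F test, against 23.7% of all probe sets. Adjusted p-values, Benjamini-Hochberg over all 45037 probe sets, were 9.32e-12 for Ccl3, 1.05e-10 for Ccl4, 1.65e-11 for Ccl5, 0.000166 for Xcl1 and 0.0263 for Ccl1. In this bulk RNA, fewer cells that make a transcript and less of it per cell cannot be told apart.

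**Figure D1:**
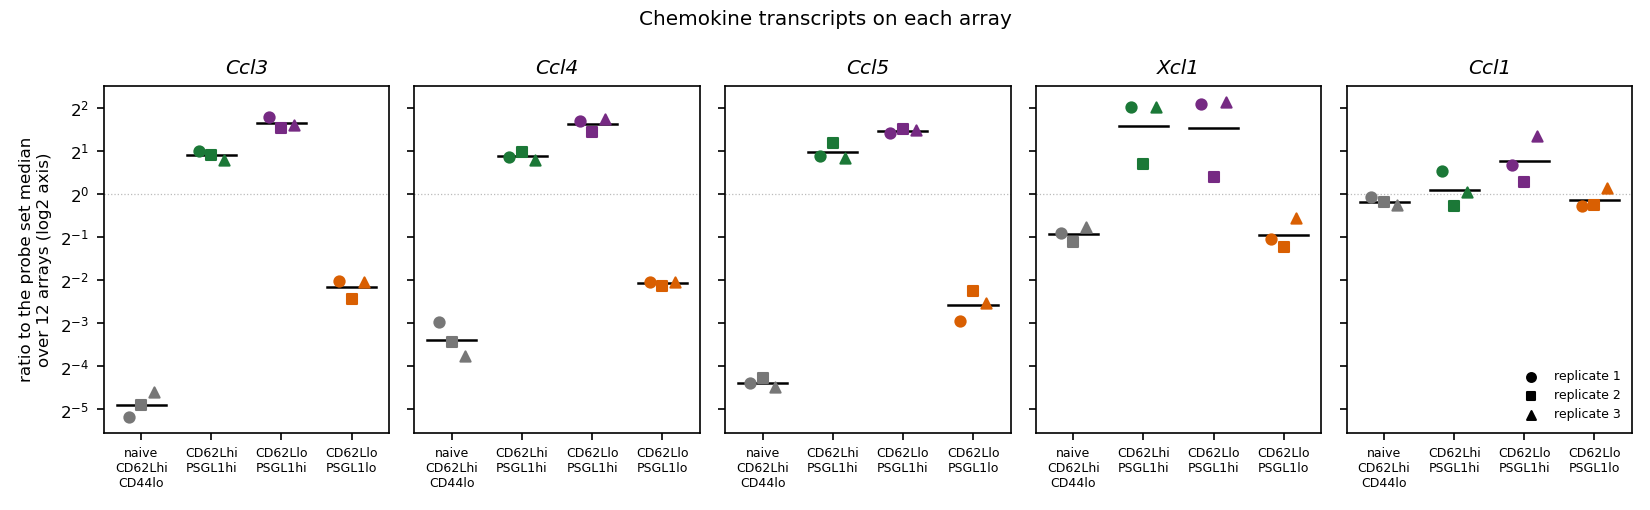
Ratio of each chemokine transcript to its median over 12 arrays (log2 axis) by population; points are arrays, shapes are replicate numbers and bars are means of the 3 log2 values. Ccl3, Ccl4 and Ccl5 fall into the same order in their 3 panels, from naive through CD62Llo PSGL1lo to both PSGL1hi populations, whereas Xcl1 is at a like level in naive and CD62Llo PSGL1lo cells and Ccl1 spans a narrow range.

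Ccl3, which encodes MIP-1α, had ratios of 3.481, 2.926 and 3.054 on the CD62Llo PSGL1hi arrays and 2.022, 1.877 and 1.754 on the CD62Lhi PSGL1hi arrays. On the CD62Llo PSGL1lo arrays they were 0.246, 0.186 and 0.245, and on the naive arrays 0.0277, 0.0337 and 0.0412. No array of one population overlapped those of another. Each step of this order passed the test, from naive to CD62Llo PSGL1lo, to CD62Lhi PSGL1hi, to CD62Llo PSGL1hi.

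Ccl4 encodes MIP-1β and lies next to Ccl3 on the chromosome. Its ratios were 3.289, 2.754 and 3.349 in CD62Llo PSGL1hi cells and 1.837, 1.994 and 1.755 in CD62Lhi PSGL1hi cells. In CD62Llo PSGL1lo cells they were 0.245, 0.228 and 0.242, and in naive cells 0.128, 0.0924 and 0.0740. The order of populations was that of Ccl3, again without overlap, with a smaller step between naive and CD62Llo PSGL1lo cells.

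Ccl5, which encodes RANTES and is kept in secretory stores of memory T cells, had ratios of 2.690, 2.879 and 2.818 in CD62Llo PSGL1hi cells and 1.857, 2.294 and 1.790 in CD62Lhi PSGL1hi cells. The CD62Llo PSGL1lo arrays gave 0.130, 0.210 and 0.174, and the naive arrays 0.0475, 0.0516 and 0.0446. The 4 populations did not overlap, and the difference between both PSGL1hi populations did not pass the test.

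Xcl1 encodes lymphotactin. Its ratios were 4.261, 1.314 and 4.452 in CD62Llo PSGL1hi cells and 4.095, 1.638 and 4.097 in CD62Lhi PSGL1hi cells. They were 0.485, 0.430 and 0.686 in CD62Llo PSGL1lo cells and 0.540, 0.461 and 0.595 in naive cells. The 6 PSGL1hi arrays were all above the other 6, replicate 2 of each PSGL1hi population was well below its partners, and CD62Llo PSGL1lo and naive arrays overlapped.

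Ccl1, also called I-309 or TCA-3, had ratios of 1.616, 1.227 and 2.548 in CD62Llo PSGL1hi cells and 1.467, 0.827 and 1.043 in CD62Lhi PSGL1hi cells. The CD62Llo PSGL1lo arrays gave 0.836, 0.840 and 1.107, and the naive arrays 0.957, 0.883 and 0.838. CD62Llo PSGL1hi cells were highest, above every CD62Llo PSGL1lo and naive array. The other 3 populations overlapped one another, and none of their differences passed the test.

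In the comparison of CD62Llo PSGL1lo with CD62Llo PSGL1hi cells, which differ in PSGL1 alone by the gate, all 5 chemokine transcripts were lower and none of the 5 overlapped between groups. Of all probe sets 4.97% were lower by the test and 3.41% higher, and 11.4% were lower without overlap of the arrays. Ccl5 was 16.6-fold lower, at 0.171 ± 0.0401 (SD, n = 3) against 2.80 ± 0.0965, a log2 difference of -4.06 ± 0.15 (SE; adjusted p = 1.26e-09). Ccl3 was 14.1-fold lower, at 0.226 ± 0.0344 against 3.15 ± 0.291 (-3.81 ± 0.15, adjusted p = 1.69e-09), and Ccl4 13.1-fold lower, at 0.238 ± 0.00907 against 3.13 ± 0.328 (-3.71 ± 0.16, adjusted p = 3.72e-09). Counted from the lowest log2 difference of all probe sets, Ccl5, Ccl3 and Ccl4 stood at places 23, 27 and 29. Xcl1 was 5.59-fold lower (-2.48 ± 0.42, adjusted p = 0.00146) and stood at place 88. Ccl1 was 1.87-fold lower (-0.90 ± 0.24, adjusted p = 0.0308), at place 751.

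The Ccl1 call in this comparison rested on single arrays. It did not pass without CD62Llo PSGL1hi replicate 1 (adjusted p = 0.0720) or replicate 3 (0.135), or without CD62Llo PSGL1lo replicate 1 (0.0863) or replicate 2 (0.0779). It also did not pass with quantile normalization (0.0524), with array weights (0.0541) or with only the 6 arrays compared (0.0706).

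Against CD62Lhi PSGL1hi cells, 4 of the 5 transcripts were lower in CD62Llo PSGL1lo cells, where 6.27% of all probe sets were lower and 5.37% higher. Ccl5 was 11.7-fold lower (-3.55 ± 0.15, adjusted p = 3.45e-09), Ccl3 8.41-fold (-3.07 ± 0.15, adjusted p = 1.01e-08) and Ccl4 7.81-fold (-2.96 ± 0.16, adjusted p = 2.66e-08). Xcl1 was 5.77-fold lower (-2.53 ± 0.42, adjusted p = 0.000878). For Ccl1 the log2 difference was -0.23 ± 0.24 (95% confidence interval -0.75 to 0.28, adjusted p = 0.686).

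The 2 PSGL1hi populations, which differ in CD62L, had the fewest differing probe sets of any pair, with 0.395% of all probe sets higher and 0.839% lower in CD62Llo PSGL1hi cells. Ccl3 was 1.67-fold higher there (0.74 ± 0.15, adjusted p = 0.0223) and Ccl4 1.68-fold higher (0.75 ± 0.16, adjusted p = 0.0336). Ccl5 was 1.42-fold higher without overlap of the arrays but did not pass (0.51 ± 0.15, confidence interval 0.18 to 0.83, adjusted p = 0.183). It passed with quantile normalization, at 1.01 (adjusted p = 0.00608). Ccl1 had a difference of 0.67 ± 0.24 (0.15 to 1.18, adjusted p = 0.327), with overlapping arrays. For Xcl1 it was -0.05 ± 0.42, an interval of -0.95 to 0.86 that spans nearly a doubling either way (adjusted p = 0.989).

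Both calls between the PSGL1hi populations depended on single arrays. The Ccl3 call was lost without any one of CD62Llo PSGL1hi replicates 1, 2 and 3 or CD62Lhi PSGL1hi replicates 2 and 3, with adjusted p from 0.0554 to 0.118. The Ccl4 call was lost without any one of the 6 arrays of both populations, without CD62Llo PSGL1lo replicate 3 or without naive replicate 2, with adjusted p from 0.0504 to 0.141. The log2 differences themselves stayed between 0.67 and 0.84 in these omissions.

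**Figure D2:**
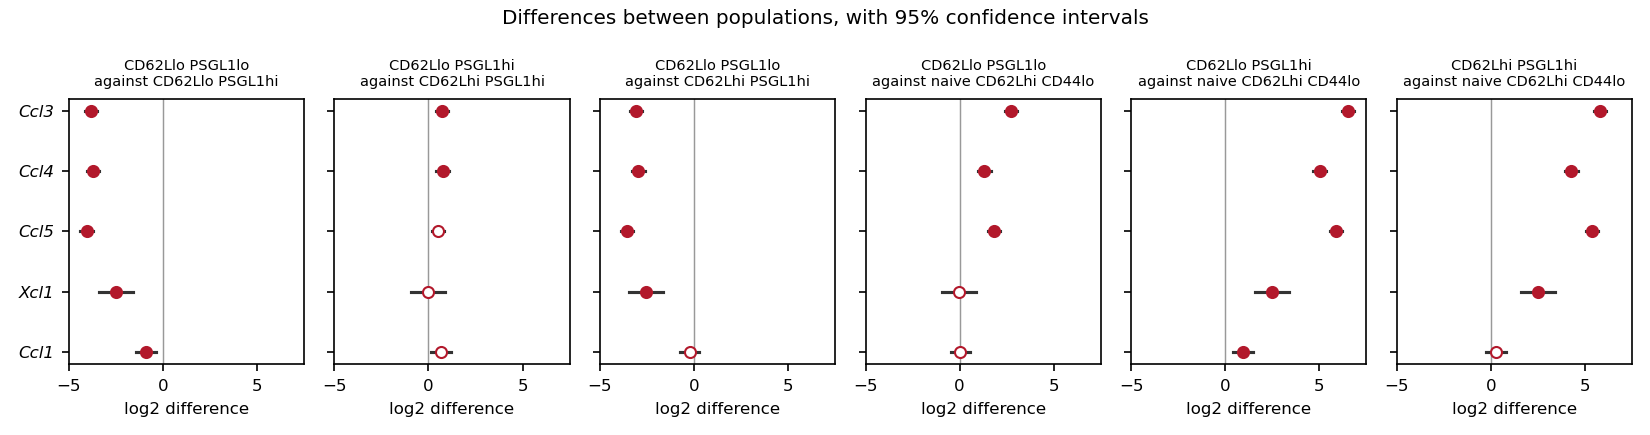
Log2 difference of each chemokine transcript in the 6 pairwise comparisons, first population minus second, with 95% confidence intervals; filled points passed the adjusted p threshold and open points did not. All 5 transcripts are lower in CD62Llo PSGL1lo cells than in CD62Llo PSGL1hi cells, and the Xcl1 and Ccl1 points for CD62Llo PSGL1lo against naive cells lie near 0.

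Ccl3, Ccl4, Ccl5 and Ccl1 had their largest differences between CD62Llo PSGL1hi and naive cells. All 5 transcripts were higher in CD62Llo PSGL1hi cells, with 9.1% of all probe sets higher and 8.16% lower. Ccl3 rose 93.2-fold (log2 difference 6.54 ± 0.15, adjusted p = 5.53e-12), the second-highest difference of all probe sets. Ccl5 rose 58.5-fold (5.87 ± 0.15, adjusted p = 1.4e-11) and stood at place 10, and Ccl4 rose 32.6-fold (5.03 ± 0.16, adjusted p = 7.61e-11) at place 41. Xcl1 was 5.52-fold higher (2.46 ± 0.42, adjusted p = 0.000745, place 378). Ccl1 was 1.93-fold higher (0.94 ± 0.24, adjusted p = 0.013), a call that was lost without CD62Llo PSGL1hi replicate 3 (0.0576) or naive replicate 3 (0.0535). With quantile normalization the log2 differences of Ccl3, Ccl5 and Ccl4 were 4.97, 4.44 and 4.04, and all 5 transcripts still passed.

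In CD62Lhi PSGL1hi cells 4 transcripts were higher than in naive cells, with 8.6% of all probe sets higher and 8.66% lower. Ccl3 was 55.7-fold higher (5.80 ± 0.15, adjusted p = 1.86e-11, place 7), Ccl5 41.2-fold (5.36 ± 0.15, adjusted p = 3.51e-11, place 16) and Ccl4 19.4-fold (4.28 ± 0.16, adjusted p = 4.21e-10, place 58). Xcl1 was 5.70-fold higher (2.51 ± 0.42, adjusted p = 0.000663). The log2 difference of Ccl1 was 0.28 ± 0.24 (-0.23 to 0.79, adjusted p = 0.517). With quantile normalization the log2 differences were smaller but still passed, at 3.66 for Ccl3, 3.43 for Ccl5 and 2.75 for Ccl4.

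CD62Llo PSGL1lo cells were above naive cells for 3 of the 5 transcripts, where 9.53% of all probe sets were higher and 10.6% lower. Ccl3 was 6.63-fold higher (2.73 ± 0.15, adjusted p = 7.42e-09), Ccl5 3.52-fold (1.81 ± 0.15, adjusted p = 6.12e-07) and Ccl4 2.49-fold (1.32 ± 0.16, adjusted p = 2.44e-05). With quantile normalization the Ccl5 difference was 0.11 (adjusted p = 0.808) and that of Ccl4 -0.10 (0.736), so neither passed, and Ccl3 alone of the 3 still did, at 0.73 (adjusted p = 0.00217). Xcl1 differed from naive cells by -0.02 ± 0.42 (-0.92 to 0.89, adjusted p = 0.987) and Ccl1 by 0.04 ± 0.24 (-0.47 to 0.56, adjusted p = 0.933). These intervals allow nearly a doubling of Xcl1 in either direction.

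Whether the 5 transcripts followed one pattern was tested on the gap between the log2 ratios of each pair on the same array, with an exact permutation test of the F statistic over all 15400 ways to divide 12 arrays into groups of 3. The smallest p this test allows is 6.49e-05, and p-values were adjusted over the 10 pairs. For 9 of the 10 pairs the gap differed among the populations, and the exception was Ccl3 with Ccl5 (adjusted p = 0.0595). The neighbours Ccl3 and Ccl4 differed in naive cells, where the gap was -1.50 ± 0.68 (SD, n = 3), against 0.02 ± 0.11 in CD62Lhi PSGL1hi, 0.01 ± 0.13 in CD62Llo PSGL1hi and -0.09 ± 0.18 in CD62Llo PSGL1lo cells (exact permutation test, adjusted p = 0.0128). Ccl4 and Ccl5 differed as well (adjusted p = 0.0127 in the exact permutation test), and the pairs that hold Xcl1 or Ccl1 had adjusted p from 0.00195 to 0.00622. The naive ratios of Ccl3 and Ccl4 were at most 0.0412 and 0.128. Without detection calls, how far they stood above background is unknown. The gap tests were not repeated with quantile normalization.

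Within the 3 CD44+ populations no pair of transcripts passed this test after adjustment. There the smallest p among 280 divisions is 0.00357, the smallest found was 0.00714 for Xcl1 with Ccl1, and 4 of the 10 pairs had an unadjusted p under 0.05 in the exact permutation test. Those 4 were the pairs that hold Ccl1. Because same-numbered CD44+ arrays deviated together, an exact permutation test within replicate numbers was added after the data were seen. Its smallest p is 0.0278, reached by 3 pairs (Ccl4 with Ccl5, Ccl5 with Xcl1 and Xcl1 with Ccl1). None passed after adjustment over the 10 pairs, with 0.0926 the lowest adjusted p. With so high a smallest p, 3 pairs could not pass that adjustment, so this result decides nothing. As a description, the log2 gap of Ccl3 to Xcl1 was larger in CD62Llo PSGL1hi than CD62Lhi PSGL1hi cells by 0.73, 0.96 and 0.68 in replicates 1, 2 and 3. For Ccl4 to Xcl1 these values were 0.78, 0.78 and 0.81, and for Ccl5 to Xcl1 0.48, 0.65 and 0.53. The gaps of Ccl3, Ccl4 and Ccl5 to Ccl1 changed sign between replicates. Over the 3 CD44+ populations, Ccl3 with Xcl1 and Ccl4 with Xcl1 each had p = 0.0556 (adjusted p = 0.111) in that exact permutation test.

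The genes whose pattern over the 12 arrays was nearest, by the root mean square difference of centred log2 ratios among 18188 other genes, were then listed for each of the 5. Nearest to Ccl5 were Nkg7, a granule protein of cytotoxic lymphocytes, at 0.437, and Gzmk, the protease granzyme K, at 0.457, followed by Il10 at 0.563 and Itgae at 0.574. Ccl3 had Gzmk at 0.610, Nkg7 at 0.754, Itgae at 0.769 and Penk at 0.778. Nearest to Ccl4 were Il10, the cytokine interleukin-10, at 0.329, and Havcr2, the inhibitory receptor TIM-3, at 0.365, then Rhoq at 0.490 and Nkg7 at 0.526. The nearest member to Ccl5 was Ccl3, at 0.444, and that to Ccl4 was Ccl5, at 0.473. Over the 9 CD44+ arrays alone, Ccl3 and Ccl4 had the same 4 nearest genes. For Ccl3 these were Havcr2 at 0.198, Fasl, the death ligand, at 0.213, Il18r1 at 0.217 and Ctsw at 0.218, and Ccl5 then had Sema4a at 0.218 and Il18r1 at 0.282.

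Over all 12 arrays the nearest genes to Xcl1 were Swap70 at 0.429, Hopx at 0.459, Dapk2 at 0.476 and Atp6v0d2 at 0.492, against an SD of Xcl1 itself of 1.42 over the arrays. Those of Ccl1 were F2rl2 at 0.207, AA467197 at 0.231, Nmrk1 at 0.262 and Slamf1 at 0.267, against an SD of 0.5. These distances are descriptions over 12 arrays in 4 populations, and a gene that varies little is near to any other that does.

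Xcl1 was low on replicate 2 of both PSGL1hi populations. The log2 gap of replicate 2 to the mean of replicates 1 and 3 was -1.73 in CD62Llo PSGL1hi and -1.32 in CD62Lhi PSGL1hi cells. It was as low or lower in 0.00222% and 0.0200% of probe sets, counting Xcl1 itself. Such shares give a rank among all probe sets, taken after the Xcl1 values were seen, and are no test. The Xcl1 gap was -0.42 in CD62Llo PSGL1lo cells (9.43% of probe sets as low or lower) and -0.30 in naive cells (2.65%). Ccl1 showed gaps of -0.73 and -0.58 in the same PSGL1hi populations, with 0.113% and 0.713% of probe sets as low or lower. For Ccl3, Ccl4 and Ccl5 these gaps lay between -0.27 and 0.33.

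**Figure D3:**
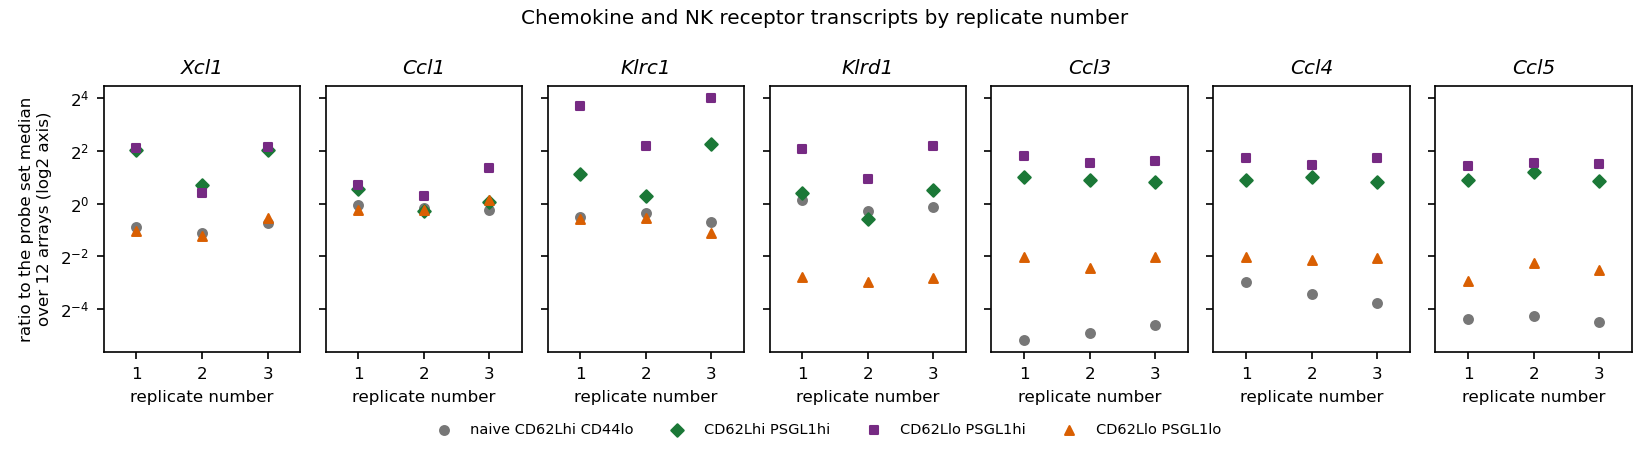
Ratio to the median over 12 arrays (log2 axis) against replicate number for Xcl1, Ccl1, the NK receptor genes Klrc1 and Klrd1, and Ccl3, Ccl4 and Ccl5; symbols are populations and each point is 1 array. Replicate 2 of both PSGL1hi populations is low for Xcl1, Klrc1 and Klrd1, whereas Ccl3, Ccl4 and Ccl5 show no such step.

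The receptor genes Klrc1 and Klrd1, which encode the NKG2A and CD94 chains carried by NK cells and some T cells, were low on the same arrays. Klrc1 had ratios of 12.91, 4.509 and 16.02 in CD62Llo PSGL1hi cells and 2.168, 1.228 and 4.810 in CD62Lhi PSGL1hi cells, against 0.467 to 0.689 in CD62Llo PSGL1lo and 0.616 to 0.772 in naive cells. Klrd1 had 4.207, 1.890 and 4.601, then 1.307, 0.662 and 1.412, against 0.126 to 0.146 and 0.819 to 1.086. Replicate 2 was the lowest of 3 for both genes in each PSGL1hi population. Of the other measured markers of NK and CD8 T cells, Klrg1, Klrk1 and Ncr1 were also lowest on replicate 2 in both, whereas Gzma, Cd8a, Cd8b1, Klra8 and Prf1 were not. Gzma had 0.813, 0.869 and 1.808 in CD62Llo PSGL1hi cells and 1.356, 1.536 and 1.979 in CD62Lhi PSGL1hi cells. A second Klrc1 probe set did not show the difference between CD62Llo PSGL1lo and CD62Llo PSGL1hi cells (-0.22 ± 0.12).

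Among 10 measured markers of NK and CD8 T cells, 4 fell and none rose in CD62Llo PSGL1lo cells than in CD62Llo PSGL1hi cells. These were Klrd1 by -4.59, Klrc1 by -4.03, Klrg1 by -3.69 and Gzma by -2.21 on the log2 scale. The mean log2 ratio of the list ranged from -0.92 to -0.82 in CD62Llo PSGL1lo cells, 0.34 to 0.93 in CD62Llo PSGL1hi, 0.15 to 0.63 in CD62Lhi PSGL1hi and -0.21 to -0.15 in naive cells. Ncr1, which encodes the NK cell receptor NKp46, stayed between 0.857 and 1.207 on all CD44+ arrays, and Cd8a between 0.844 and 1.044, below its naive arrays at 1.341 to 1.569. Their part in the chemokine differences was not tested.

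Omitting replicate 2 of all 3 CD44+ populations, an alternative added after these arrays were seen, gave Xcl1 differences of -2.92 for CD62Llo PSGL1lo against CD62Llo PSGL1hi (adjusted p = 2.33e-07) and 3.04 for CD62Llo PSGL1hi against naive cells (adjusted p = 2.59e-08). Their SE fell to 0.17 and 0.15. Xcl1 was itself low on replicate 2 of both PSGL1hi populations, so its larger differences and smaller SE and p-values follow from the omission and add no evidence. Xcl1 between the PSGL1hi populations was then 0.09 (adjusted p = 0.929), and Ccl1 was lower in CD62Llo PSGL1lo cells than in CD62Llo PSGL1hi cells by -1.08 (adjusted p = 0.00792). One of the 2 calls between the PSGL1hi populations was lost, that of Ccl4 (adjusted p = 0.0514), while Ccl3 passed.

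Macrophages and neutrophils also make Ccl3 and Ccl4. Of 17 measured macrophage, monocyte and neutrophil markers, 1 was lower and none higher in CD62Llo PSGL1lo cells than in CD62Llo PSGL1hi cells, namely Cd68 by -1.79 on the log2 scale. Cd68, a lysosomal protein gene, went with Ccl3, Ccl4 and Ccl5 in most other comparisons too. It differed by -2.48 in CD62Llo PSGL1lo against CD62Lhi PSGL1hi cells and by 3.02 and 3.71 in the CD62Llo and CD62Lhi PSGL1hi populations against naive cells. Between the PSGL1hi populations it went the other way, at -0.69 in CD62Llo against CD62Lhi PSGL1hi cells. The arrays did not overlap there, and limma did not call it (adjusted p = 0.0593). The mean log2 ratio of the list overlapped among CD44+ populations, from -0.30 to 0.11 in CD62Llo PSGL1lo, -0.10 to 0.23 in CD62Llo PSGL1hi and -0.12 to 0.26 in CD62Lhi PSGL1hi cells. In naive cells it was higher, from 0.33 to 0.41, but this mean rested mostly on S100a8 and S100a9 and not on the list as a set. Their mean log2 ratios in naive cells were 3.71 and 3.74, and that of Cd68 was -2.29. S100a8 and S100a9 were lower in each CD44+ population than in naive cells by -3.99 to -3.68 on the log2 scale. Of the 17 markers, only 3 were lower and 1, Cd68, was higher in each comparison of a CD44+ population with naive cells. The third lower gene was Lyz2 in CD62Llo PSGL1lo cells (-1.58) and Itgam in the CD62Llo and CD62Lhi PSGL1hi populations (-0.34 and -0.38). The mean log2 ratios of Lyz2 and Itgam in naive cells were 0.84 and 0.26. Of 11 B and plasma cell markers, 2 were lower in CD62Llo PSGL1lo cells than in CD62Llo PSGL1hi cells, and of 9 dendritic, 8 platelet and erythroid and 4 gamma-delta T cell markers none differed between these populations. What part these lists had in the results was not tested.

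Few receptor genes of the 5 chemokines differed. Of 7 measured receptor and decoy genes, 2 were lower and none higher in CD62Llo PSGL1lo cells than in CD62Llo PSGL1hi cells (median difference -0.09, against 0.0025 over all probe sets). Ccr8, the Ccl1 receptor, had ratios of 0.757, 0.876 and 0.784 in CD62Llo PSGL1lo, 1.124, 1.183 and 1.299 in CD62Llo PSGL1hi, 1.249, 1.554 and 1.936 in CD62Lhi PSGL1hi and 0.671, 0.734 and 0.728 in naive cells. Both PSGL1hi populations were above the other arrays. Ccr8 was lower in CD62Llo PSGL1lo cells by -0.58 ± 0.14 against CD62Llo PSGL1hi (adjusted p = 0.015) and by -0.95 ± 0.14 against CD62Lhi PSGL1hi cells (adjusted p = 0.000242). The first call was lost without CD62Llo PSGL1lo replicate 1 or 3 or CD62Llo PSGL1hi replicate 3 (adjusted p up to 0.0744).

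Ccrl2, an atypical receptor that binds chemerin, was lower in CD62Llo PSGL1lo cells than in CD62Llo PSGL1hi cells by -1.05 ± 0.16 (adjusted p = 0.000663) and higher there than in naive cells by 0.72 ± 0.16 (adjusted p = 0.00472). With quantile normalization the latter difference was 0.18 (adjusted p = 0.633). Xcr1, the Xcl1 receptor, had ratios between 0.808 and 1.06 on all 12 arrays and passed no comparison. In both comparisons of PSGL1hi with naive cells, 2 receptor genes were higher, Ccr8 and Ccrl2, and none was lower.

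Of 30 other chemokine ligands measured, 1 was higher and 1 lower in CD62Llo PSGL1lo cells than in CD62Llo PSGL1hi cells, with a median difference of 0.04, and none passed between the PSGL1hi populations. Against CD62Lhi PSGL1hi cells, 1 was higher and 3 were lower in CD62Llo PSGL1lo cells. Against naive cells, 2 were higher and 2 lower in CD62Llo PSGL1lo, 3 higher and 2 lower in CD62Llo PSGL1hi, and 4 higher and none lower in CD62Lhi PSGL1hi cells. Cxcl10, an interferon-induced ligand of Cxcr3, had ratios of 3.058, 1.772 and 2.719 in CD62Llo PSGL1lo, 1.278, 1.037 and 1.824 in CD62Llo PSGL1hi, 0.891, 0.813 and 0.963 in CD62Lhi PSGL1hi and 0.439, 0.453 and 0.399 in naive cells. CD62Llo PSGL1lo cells were thus highest for Cxcl10 on average, with 1 array below the highest CD62Llo PSGL1hi array. The 5 chemokines, in contrast, were all lower in them than in CD62Llo PSGL1hi cells, though none was called lower than in naive cells.

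The Cxcl10 difference of CD62Llo PSGL1lo cells was 2.51 ± 0.20 against naive (adjusted p = 4.81e-07), 1.47 ± 0.20 against CD62Lhi PSGL1hi (adjusted p = 0.000193) and 0.87 ± 0.20 against CD62Llo PSGL1hi cells (adjusted p = 0.0149). The last was not called with quantile normalization (0.37, adjusted p = 0.519), nor without CD62Llo PSGL1hi replicate 1 or 2 or CD62Llo PSGL1lo replicate 1 or 3 (adjusted p up to 0.0779). The neutrophil attractants Cxcl3 and Cxcl2 were lower in CD62Llo PSGL1lo than in CD62Lhi PSGL1hi cells, by -1.21 ± 0.22 (adjusted p = 0.00194) and -0.92 ± 0.19 (adjusted p = 0.00427). Against naive cells they were higher in CD62Lhi PSGL1hi cells, by 1.39 ± 0.22 and 1.15 ± 0.19. In CD62Llo PSGL1hi cells Cxcl2 was higher by 0.59 ± 0.19 (adjusted p = 0.0452; 0.106 with quantile normalization) and Ccl9 by 0.59 ± 0.11 (adjusted p = 0.00179; 0.998 at its other probe set). In CD62Llo PSGL1lo cells, Cxcl11 was higher than in naive cells by 0.99 ± 0.25 (adjusted p = 0.0097; 0.815 at its other probe set) and Ccl6 lower by -0.49 ± 0.16 (adjusted p = 0.0403; 0.746 at its other probe set and 0.0921 with quantile normalization).

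Ccl3, Ccl4 and Ccl5 lie in one stretch of chromosome 11 in the RefSeq gene order, as Heatr9, Ccl5, Ccl9, Ccl6, Ccl3, Ccl4 and Wfdc17. Ccl1 lies elsewhere on chromosome 11, between Ccl8 and Tmem132e, and Xcl1 on chromosome 1 between Dpt and Tbx19. The neighbours were looked at after the values were known. In CD62Llo PSGL1lo against CD62Llo PSGL1hi cells, Ccl9 differed by -0.42 ± 0.11 (adjusted p = 0.0321) at one probe set and -0.07 ± 0.10 (0.822) at another. Ccl6 differed by -0.44 ± 0.16 (adjusted p = 0.120) and -0.14 ± 0.12 (0.649), and Wfdc17 by -0.19 ± 0.12 (0.499). Both CC chemokine genes between Ccl5 and Ccl3 thus moved by far less than the 3 members around them, and the Ccl9 call was lost without any one of the 3 CD62Llo PSGL1hi arrays or CD62Llo PSGL1lo replicate 3.

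**Figure D4:**
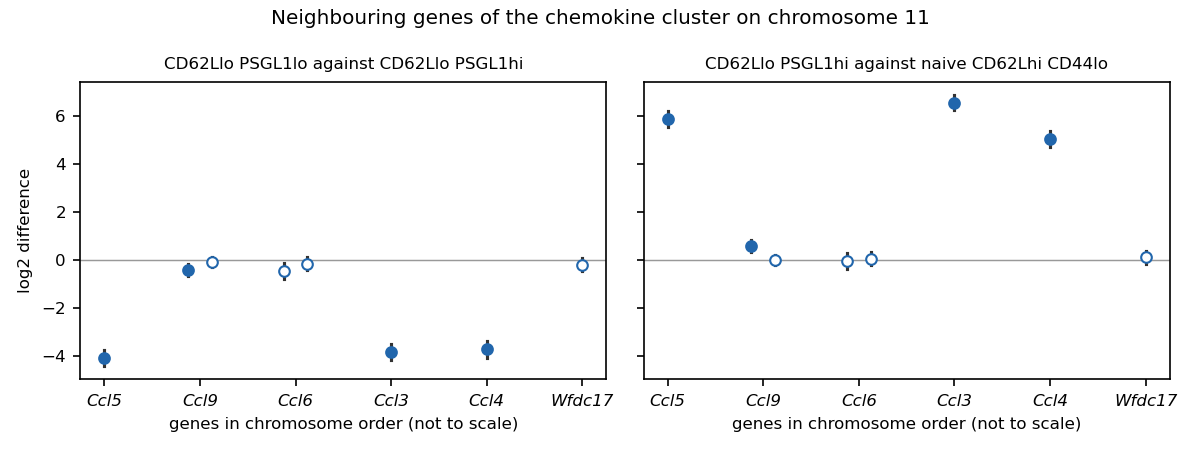
Log2 difference of the genes along the chemokine stretch of chromosome 11, in gene order and not to scale, for CD62Llo PSGL1lo against CD62Llo PSGL1hi cells (left) and CD62Llo PSGL1hi against naive cells (right); bars are 95% confidence intervals, each point is 1 probe set and filled points passed the test. Ccl5, Ccl3 and Ccl4 stand apart from Ccl9, Ccl6 and Wfdc17 in both comparisons.

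Among 36 measured transcription factors that act on chemokine genes in T cells, 8 were lower and 3 higher in CD62Llo PSGL1lo cells than in CD62Llo PSGL1hi cells, with a median difference of -0.05. Tbx21, which encodes the Th1 factor T-bet, had ratios of 0.417, 0.352 and 0.551 in CD62Llo PSGL1lo, 1.865, 1.660 and 2.101 in CD62Llo PSGL1hi, 1.534, 1.544 and 1.449 in CD62Lhi PSGL1hi and 0.0819, 0.0765 and 0.0728 in naive cells. This is the order of populations seen for Ccl3, Ccl4 and Ccl5, and the PSGL1hi populations did not differ for Tbx21 by the test (0.31 ± 0.14, adjusted p = 0.529). Between both CD62Llo populations the largest difference of the list was that of Eomes, which encodes the T-bet relative eomesodermin, lower in CD62Llo PSGL1lo cells by -4.43 ± 0.15 (adjusted p = 6.83e-10). Prdm1, which encodes the effector cell repressor Blimp-1, followed at -2.64 ± 0.14 (adjusted p = 3.42e-08) and Hopx, among the genes nearest to Xcl1, at -2.11 ± 0.15 (adjusted p = 5.91e-07). Bcl6, the follicular helper factor, was higher there by 1.95 ± 0.14 (adjusted p = 6.39e-07). Against CD62Lhi PSGL1hi cells the differences were -4.62 ± 0.15 for Eomes, -2.56 ± 0.14 for Prdm1 and 2.27 ± 0.14 for Bcl6. Eomes was lower in CD62Llo PSGL1lo than in naive cells by -0.63 ± 0.15 (adjusted p = 0.00851; 0.0511 without naive replicate 3). It was higher in both PSGL1hi populations than in naive cells, by 3.80 ± 0.15 and 3.99 ± 0.15.

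Other factors differed from naive cells in all CD44+ populations. Bhlhe40, a regulator of T cell cytokine production, was higher by 5.68 ± 0.19 in CD62Llo PSGL1lo, 5.44 ± 0.19 in CD62Llo PSGL1hi and 4.75 ± 0.19 in CD62Lhi PSGL1hi cells. With quantile normalization these were 3.31, 3.19 and 2.28, and all 3 still passed. Tbx21 was higher by 4.60 ± 0.14 in CD62Llo PSGL1hi and 4.29 ± 0.14 in CD62Lhi PSGL1hi cells, the latter 2.60 with quantile normalization. In CD62Llo PSGL1lo cells Bcl6 was higher by 2.74 ± 0.14 and Irf4 by 2.70 ± 0.10, the latter by only 0.59 ± 0.14 at its other probe set. Against naive cells the list had 17 genes higher and 5 lower in CD62Llo PSGL1lo, 22 and 3 in CD62Llo PSGL1hi, and 17 and 3 in CD62Lhi PSGL1hi cells, with median differences of 0.40, 0.77 and 0.50 against about -0.05 over all probe sets. Between the PSGL1hi populations, Gata3 was higher (0.68 ± 0.13, adjusted p = 0.0184) and Bach2 lower (-0.64 ± 0.11, adjusted p = 0.00986) in CD62Llo PSGL1hi cells. Both calls were lost when single arrays were omitted, with adjusted p up to 0.109 for Gata3 (without CD62Lhi PSGL1hi replicate 1 or 3, or CD62Llo PSGL1hi replicate 1 or 2) and 0.0517 for Bach2 (without CD62Llo PSGL1hi replicate 1 or 3).

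Of 29 genes for chemokine storage, cleavage and receptor signalling, 7 were lower and 2 higher in CD62Llo PSGL1lo cells than in CD62Llo PSGL1hi cells (median difference -0.13). Ccr2, a receptor of inflammatory CC chemokines, had the largest difference, at -4.43 ± 0.24 (adjusted p = 4.85e-08), and from -3.67 to -1.46 at its other 3 probe sets. It was also lower against CD62Lhi PSGL1hi cells (-3.19 ± 0.24), higher in the CD62Llo and CD62Lhi PSGL1hi populations than in naive cells (4.48 ± 0.24 and 3.23 ± 0.24), and 0.05 ± 0.24 from naive cells in CD62Llo PSGL1lo cells (adjusted p = 0.928). Between the PSGL1hi populations Ccr2 was higher in CD62Llo cells by 1.25 ± 0.24 (adjusted p = 0.0204), a call lost without CD62Lhi PSGL1hi replicate 1 or 3 or CD62Llo PSGL1hi replicate 2 or 3 (adjusted p up to 0.0946). Cxcr3, the receptor of Cxcl10, was lower in CD62Llo PSGL1lo cells by -1.70 ± 0.12 (adjusted p = 5.05e-07) against CD62Llo PSGL1hi cells. It was above naive cells in all 3 CD44+ populations, by 3.82 ± 0.12 in CD62Llo PSGL1lo, 5.52 ± 0.12 in CD62Llo PSGL1hi and 5.16 ± 0.12 in CD62Lhi PSGL1hi cells (1.64, 3.64 and 3.03 with quantile normalization). Tiam1, an activator of Rac, was higher than in naive cells by 4.25, 3.65 and 3.04 in the same populations at 1 probe set, and passed at neither of its other 2 probe sets. Pik3r5, the regulatory subunit of the phosphoinositide 3-kinase that chemokine receptors activate, was lower in CD62Llo PSGL1lo cells by -2.09 ± 0.13 (adjusted p = 1.65e-07) against CD62Llo PSGL1hi and by -2.45 ± 0.13 against CD62Lhi PSGL1hi cells, and it was also lower than in naive cells by -2.74 ± 0.13 (adjusted p = 2.17e-09). Dpp4, a surface peptidase that trims the amino ends of chemokines including Ccl5, was lower in CD62Llo PSGL1lo than in CD62Lhi PSGL1hi cells by -1.50 ± 0.17 (adjusted p = 2.37e-05). Srgn, the granule proteoglycan that holds stored chemokines, did not differ between both CD62Llo populations (-0.02 ± 0.12, confidence interval -0.28 to 0.23, adjusted p = 0.96) and was higher in each CD44+ population than in naive cells, by 1.02 to 1.07 (0.62 to 0.67 with quantile normalization). Srgn was singled out after its values were seen.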

How the data were processed

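RNA of 4 sorted CD4 T cell populations, 3 arrays each, was measured on 12 arrays. The deposited values are linear ratios, set by the authors so that a probe set's 12 values centre on 1: their median was within 0.002 of 1 for 99.7% of 45101 probe sets. MAS5 is named in the submitters' processing notes, without version or scaling (not given in the sources used here). No detection calls were used, so the signal over background is unknown, and the number of arrays limits the precision (median SE 0.12 on the log2 scale).

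From these ratios, log2 values of 45037 probe sets (64 controls left out) entered lmFit and eBayes of limma (version 3.58.1, R 4.3.3), 1 mean per population over all 12 arrays. Tests were two-sided, adjusted by Benjamini-Hochberg over all probe sets and called at 0.05; differences are first minus second population. Gaps between members were tested with an exact permutation F test. The fit was tested on simulated data.

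Of the probe sets, 34945 had 1 symbol, 932 several and 9160 none in the platform annotation. List genes were given by 1 probe set. Named were the members, up to 3 called genes with the largest difference per list and comparison, always Ccr8, Xcr1 and Tbx21, and the 4 genes nearest to each member. The members and lists were chosen with earlier results of these data known. Arrays of the 3 CD44+ populations with the same replicate number deviated together (correlations of 0.138 to 0.451), so the numbers were taken to pair them, from the data; naive arrays did not pair. Alternatives were other normalizations, an offset, array weights, robust variances, filters, the replicate block and leaving out arrays. Promoters came from RefSeq (GRCm38.p6), where 3 of 5 members matched.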

Additional observations from a re-analysis of the deposited data

How the results depend on the processing

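Of 815 recomputed values, 622 single values kept their direction and their side of the threshold, and 143 counts stayed within 1.5 times of the main count. A count within that range could still lose or gain a call. Of the rest, 24 single values lost a call, 1 gained one, 13 changed sign and 12 counts moved by over 1.5 times. With quantile normalization the count of members called between CD62Llo PSGL1lo and naive cells was 1 instead of 3: Ccl4 turned to -0.098 and Ccl5 fell to 0.11. Xcl1 between the PSGL1hi populations turned to 0.013 there, with no call either way. Xcl1 between CD62Llo PSGL1lo and naive cells, not called in any setting, turned to 0.017 with arrays centred on their median and to 0.197 with array weights. The causes were not tested. The tests of gaps between members fell from 9 pairs to 0 in the 3 CD44+ populations alone, where fewer arrays enter, and were 0 there too with the replicate block. The blocked test could hardly give a call after adjustment, as its smallest p is 0.0278.

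Leaving out 1 array at a time, the count of members called between the PSGL1hi populations ranged from 0 to 2. Xcl1 ranged from -0.488 to 0.529 there and from -0.212 to 0.125 between CD62Llo PSGL1lo and naive cells, and Ccl1 between the latter from -0.089 to 0.114. Calls of Ccl3, Ccl4, Ccl5 and Xcl1 in the other 5 comparisons were kept in all 12 omissions. Without replicate 2 of the 3 CD44+ populations, chosen after seeing the data, the count between the PSGL1hi populations was 1, Xcl1 there was 0.089 and Xcl1 between CD62Llo PSGL1lo and naive cells 0.125.

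The replicate block changed no call of a member: within the 3 CD44+ populations it called 5, 2 and 4 members, as without it, and Ccl5 between the PSGL1hi populations had an adjusted p of 0.0564. No detection calls were used, so how far the low naive ratios stood above background is unknown.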

Other observations

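The genes lowest on replicate 2 of both PSGL1hi populations were looked at after the values were seen. Ranked by the mean log2 gap of replicate 2 to replicates 1 and 3 in both populations, the lowest were 3 probe sets of the heat shock gene Hspa1b (-1.77, -1.76 and -1.53), the interferon-inducible gene Ifi209 (-1.54), Klrc1 (-1.53) and Xcl1 (-1.53), which stood at place 6 of 45037 probe sets. Klrd1 had -1.13, and Ccl1 stood at place 52. The gap of Ifi209 came from a high replicate 3, with replicates 1 and 2 close to each other. Its ratios in replicates 1, 2 and 3 were 0.855, 0.741 and 5.177 in CD62Llo PSGL1hi and 1.116, 0.884 and 6.226 in CD62Lhi PSGL1hi cells.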
